A study of Mus musculus with 16 samples.

Results

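The comparison is between 9 secondary mammary tumours that each grew from 1 transplanted tumour-initiating cell (TIC) and 2 secondary tumours that grew from transplanted lineage-negative (lin-) cells. The members were chosen by their sample descriptions alone, and they are 11 of the 16 tumours in the series. The other 5 are primary tumours, used here only for the estimate of spread and as a point of reference. All 16 tumours are labelled MMTV-Neu and strain FvB, were under 1.0 cm in diameter, and were measured once each on an Illumina mouse bead array with biotin-labelled RNA extracted with Trizol. The labels give no age, treatment, donor animal, host genotype or lineage marker panel, and no count of lin- cells transplanted. They do not say whether tumours shared a donor or a host, so p-values reflect only how these tumours vary, and the tumours may not be independent animals.

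Neu is the rat form of the receptor tyrosine kinase ErbB2, and in MMTV-Neu mice the promoter of the mouse mammary tumour virus drives it mainly in mammary epithelium. A TIC is defined by its ability to start a new tumour after transplantation, so in a single TIC tumour all malignant cells descend from the same founder, whereas a lin- graft is a mixed population, usually one from which blood and vessel cells have been depleted by surface markers. Vessels, fibroblasts and immune cells of a graft come largely from the host in either case. The tumours were epithelial by their markers. Krt8, Krt18, Cldn3, Cldn7 and Cdh1, which encode luminal keratins, tight junction claudins and E-cadherin, were detected on all 16 arrays. Krt8 had a mean of 13.78 in single TIC tumours on the scale of log2 normalized intensity, and 13.78 and 13.60 in lin- 1 and lin- 2. A probe for Erbb2 was not analysed here. Mean raw intensity was 961 ± 52.4 (SD, n = 9) in single TIC tumours, from 866 to 1031, and both lin- tumours lay inside that range at 900 and 1021 (exact two-sided permutation p = 1.00 over 55 splits). The share of probes detected was 50.2% ± 0.69 in single TIC tumours and 49.9% and 50% in lin- tumours (exact permutation p = 0.727).

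No gene passed the test between single TIC and lin- tumours. Of 9903 genes tested, 0 (0%) were called at a Benjamini-Hochberg adjusted p under 0.05 from limma, and 167 (1.69%) had an unadjusted p under 0.05, where 495 would be expected if no gene differed. Of the 167, 91 (0.919%) were higher and 76 (0.767%) lower in single TIC tumours. The smallest adjusted p was 0.270, for the clock gene Per1, and every other gene had an adjusted p of 1.00. Differences below are single TIC minus lin- on the log2 scale, so a negative value means a lower mean in single TIC tumours. The median difference over all genes was -0.01, and the quartiles were -0.12 and 0.11. Means were higher in single TIC tumours for 4801 genes (48.5%) and lower for 5102 (51.5%). All 9 single TIC tumours lay above both lin- tumours for 126 genes (1.27%) and below both for 110 (1.11%), 236 in all (2.38%).

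The design limited how small a difference could be seen. Before adjustment for the number of genes, the 95% confidence interval of a gene reached a median of 0.43 to either side on the log2 scale, which is 1.35-fold. For 8503 genes (85.9%) the interval lay wholly within 2-fold in either direction. These intervals treat each gene alone and do not give the smallest difference that could be called. Per1, described below, differed by -1.34 and was not called. Means differed by 2-fold or more for 48 genes, 17 higher and 31 lower in single TIC tumours, and none of these passed. A p that misses the threshold does not show that the groups are alike, and with 2 lin- tumours their own spread is poorly known. In the same fit 620 genes were called between single TIC and primary tumours and 0 between lin- and primary tumours, where 975 genes had an unadjusted p under 0.05. These counts rest on 9 and on 2 secondary tumours, against the same 5 primary tumours.

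The promoters of 3 genes are shown because their gene lists recur below: Per1 for the circadian clock, Ifit3 for the interferon response and Mcm5 for DNA replication. The windows run from 250 bases before to 50 bases after the annotated start, 5′ to 3′ on the gene's strand, from RefSeq on GRCm38.p6. Per1 has 2 annotated starts, at windows chr11:69098699-69098998 and chr11:69099902-69100201, both on the plus strand. Ifit3 lies at chr19:34583279-34583578 and Mcm5 at chr8:75109259-75109558, also on the plus strand. Capitals mark matches on either strand to CACGTG (the E-box bound by the CLOCK and BMAL1 proteins) in Per1, GAAA, any 2 bases and GAAA again (the core of the interferon-stimulated response element) in Ifit3 and TTTNGCGC (an E2F site) in Mcm5.
Per1, the first start: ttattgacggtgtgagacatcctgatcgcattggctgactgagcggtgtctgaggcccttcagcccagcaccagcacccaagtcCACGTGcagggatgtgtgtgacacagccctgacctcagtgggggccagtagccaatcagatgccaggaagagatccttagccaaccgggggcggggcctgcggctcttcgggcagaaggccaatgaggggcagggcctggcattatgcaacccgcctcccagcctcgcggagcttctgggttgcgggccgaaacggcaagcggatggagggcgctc
Per1, the second start: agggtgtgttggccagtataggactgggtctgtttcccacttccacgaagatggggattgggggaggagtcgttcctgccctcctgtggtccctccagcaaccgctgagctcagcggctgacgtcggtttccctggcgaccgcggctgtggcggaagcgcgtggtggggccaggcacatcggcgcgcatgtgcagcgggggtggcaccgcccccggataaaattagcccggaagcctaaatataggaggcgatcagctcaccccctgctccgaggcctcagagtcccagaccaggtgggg
Ifit3: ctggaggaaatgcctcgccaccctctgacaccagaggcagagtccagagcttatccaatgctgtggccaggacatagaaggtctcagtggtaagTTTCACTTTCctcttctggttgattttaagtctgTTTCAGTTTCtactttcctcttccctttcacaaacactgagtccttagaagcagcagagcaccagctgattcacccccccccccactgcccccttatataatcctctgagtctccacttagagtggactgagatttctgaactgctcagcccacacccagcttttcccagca
Mcm5: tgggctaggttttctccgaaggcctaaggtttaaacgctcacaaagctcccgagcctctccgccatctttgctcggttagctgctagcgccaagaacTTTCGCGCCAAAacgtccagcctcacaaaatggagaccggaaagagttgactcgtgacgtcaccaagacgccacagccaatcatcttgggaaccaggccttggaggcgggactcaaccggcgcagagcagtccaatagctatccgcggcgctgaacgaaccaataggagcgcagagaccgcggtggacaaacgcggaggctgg
The E-box of Per1 begins at position -166 relative to the first start, and the window of the second start holds 0 matches. Ifit3 holds 2 response elements, both read on the minus strand, and Mcm5 holds 2 E2F matches that overlap each other on opposite strands. A match is a description of letters, and binding was not measured.

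Per1 stood furthest from the null. It encodes a repressor of the circadian clock that is also an immediate target of glucocorticoid and cyclic AMP signals. Its log2 intensity in single TIC tumours 1 to 9 was 9.91, 9.28, 9.34, 9.49, 9.23, 8.85, 9.02, 9.20 and 9.27, and it was 10.65 in lin- 1 and 10.60 in lin- 2. All 9 single TIC tumours lay below both lin- tumours, with single TIC 1 the highest of the 9 and single TIC 6 the lowest. The difference was -1.34 (SE 0.23, 95% interval -1.82 to -0.85, unadjusted p = 2.72e-05, limma adjusted p = 0.270), which is 2.52-fold. Both kept probes of Per1 differed the same way, by -1.34 and -1.38. Primary tumours ranged from 9.93 to 10.77, so every single TIC tumour was also below every primary tumour, whereas lin- 1 and lin- 2 lay inside the primary range and the lin- mean differed from the primary mean by 0.32 (adjusted p = 0.717). Its adjusted p came to 0.0347 without single TIC 1 and 0.0201 with array weights, but to 1.00 without either lin- tumour.

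The other 16 measured clock genes differed by -0.36 to 0.24. The clock list of 17 genes had 3 with a higher and 14 with a lower mean in single TIC tumours, 0 called, and a median of -0.18 beside -0.01 for all genes. Ciart, a repressor of CLOCK and BMAL1 activity, gave a difference of -0.36 (SE 0.40), and Dbp, an output transcription factor of the clock, gave a difference of -0.35 (SE 0.40). Arntl, which encodes BMAL1, gave a difference of -0.34 (SE 0.26), with single TIC values of 7.10, 7.66 and 8.09 and lin- values of 8.18 and 7.79. For Arntl, of the 9 single TIC tumours, 3 lay between the lin- tumours and 6 lay below both lin- tumours. Per2, the paralogue of Per1, gave a difference of -0.23 (SE 0.21), with single TIC values of 10.13, 10.24 and 10.78 against 10.39 and 10.61, and single TIC 9 was its highest value. Tef, a relative of Dbp, differed by -0.05. Npas2, a partner of BMAL1, was not well above background on any secondary array, so no fold is given. An E-box was found in the windows of 3 of 14 clock genes with a promoter in the table (Ciart, Per1 and Tef, 21.4%) and of 931 of 8034 tested genes (11.6%). The hour at which tumours were collected is not given by the labels, and its part in the Per1 difference was not tested.

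**Figure D1:**
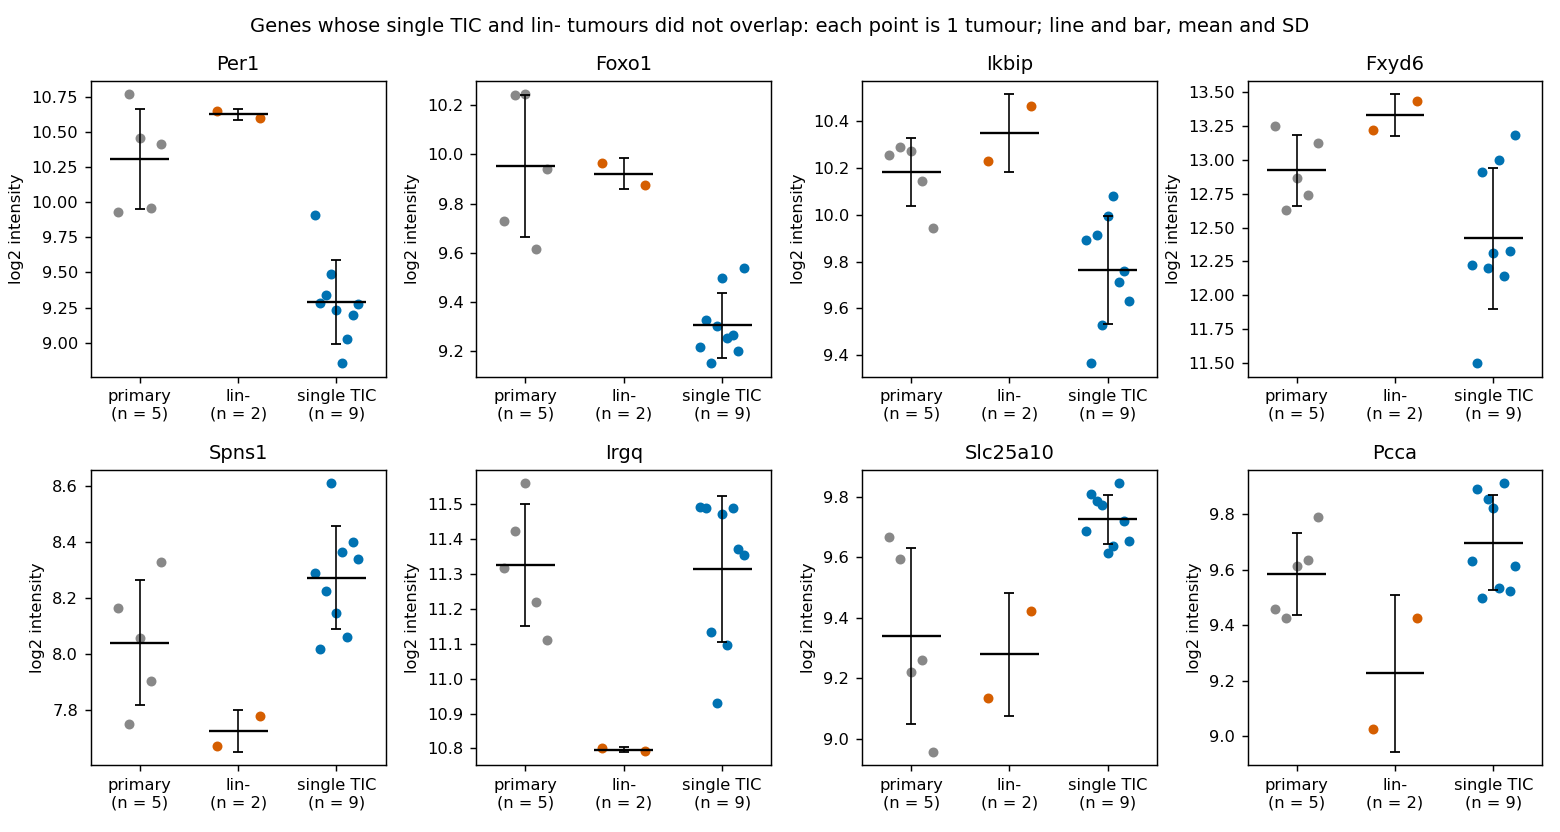
Log2 normalized intensity of leading genes in each tumour, with 1 point per tumour for the 9 single TIC, 2 lin- and 5 primary tumours, a horizontal line at each group mean and a bar for its SD. The upper row shows Per1, Foxo1, Ikbip and Fxyd6, which were lower in all 9 single TIC tumours, and the lower row Spns1, Irgq, Slc25a10 and Pcca, which were higher. Per1 runs from 8.85 to 9.91 in single TIC tumours, below 10.60 and 10.65 in the lin- tumours.

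Behind Per1, the naming rule gave 11 other genes that were lower in every single TIC tumour and detected on every array of the higher group, and none of them passed. Foxo1, a forkhead transcription factor that Akt keeps out of the nucleus, was 9.15, 9.27 and 9.54 in single TIC tumours (lowest, median and highest, as for the other triplets here) and 9.97 and 9.88 in lin- 1 and lin- 2. Its difference was -0.62 (SE 0.16, 95% interval -0.95 to -0.28, unadjusted p = 0.00124, limma adjusted p = 1.00), and its lin- mean was -0.03 from the primary mean. Bmpr1b, a type I receptor for bone morphogenetic proteins, was detected in both lin- tumours at 6.503 and 5.71 and on 0 of 9 single TIC arrays. This makes its mean at least 1.41-fold lower there (adjusted p = 1.00), a bound that takes no account of sampling error. Rab40b, a Rab-family GTPase, had the same detection pattern, with 5.71 and 5.64 in lin- tumours, and its mean was at least 1.05-fold lower in single TIC tumours. These were the 2 genes detected on both lin- arrays and on no single TIC array, and 0 genes were detected on all 9 single TIC arrays and on no lin- array. The second condition asks for detection on 9 arrays rather than 2, so the counts are not alike.

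Among the rest of these genes, Fxyd6, a regulator of the sodium pump, was 11.50, 12.31 and 13.18 in single TIC and 13.22 and 13.44 in lin- tumours, a difference of -0.91 (SE 0.32). Epdr1, a lysosomal ependymin-related protein, was 7.95, 8.56 and 9.11 against 9.26 and 9.35, a difference of -0.74 (SE 0.25). Hip1, an adaptor of clathrin-coated vesicles, was 5.10, 5.39 and 5.97 against 6.31 and 6.02, a difference of -0.71 (SE 0.24). In each of the 3 the groups did not overlap, as the rule required, and the highest single TIC value of Fxyd6 came close to lin- 1. Senp6, a protease that removes SUMO chains, differed by -0.62 and Ikbip, named for its interaction with the NF-kappaB kinase IKBKB, by -0.58. Isoc1 differed by -0.54, 1700003F12Rik by -0.47 and the tight junction-associated Tjap1 by -0.34. Each had an adjusted p of 1.00. Senp6, Isoc1, 1700003F12Rik and Hip1 were dim in single TIC tumours, with highest values of 5.65, 5.75, 5.80 and 5.97. Bmpr1b was undetected there at values up to 5.61. For lower genes the rule required detection on the lin- arrays only, so these 4 differences lie near background.

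On the higher side the same rule gave 12 genes with smaller differences, from 0.40 to 0.66. Tmcc3, a coiled-coil protein of the endoplasmic reticulum, was 5.82, 6.01 and 6.30 in single TIC and 5.14 and 5.68 in lin- tumours (difference 0.60, SE 0.16, unadjusted p = 0.00130). Lipt2 attaches lipoyl groups to mitochondrial enzymes and was 5.85, 6.15 and 6.53 against 5.31 and 5.73. The difference was 0.66 from this probe and 0.07 from the other kept probe of Lipt2. All 9 single TIC tumours exceeded both lin- tumours in these 2 genes, as the rule required. Pcca, a subunit of mitochondrial propionyl-CoA carboxylase, differed by 0.47, the mitochondrial dicarboxylate carrier Slc25a10 by 0.45, and Atpsckmt, a methyltransferase of ATP synthase, by 0.40. The oxidative phosphorylation list had 20 of 38 genes higher and 18 lower, with a median of 0.01.

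Of the rest, Spns1, a lysosomal lipid transporter, differed by 0.55, and Rab20, a GTPase of endosomes and phagosomes, by 0.51. Irgq, of the immunity-related GTPase family, differed by 0.52, and its other kept probes by 0.04, 0.31 and 0.86. Ccrl2, an atypical receptor that binds chemerin, differed by 0.56. Asb13, a substrate receptor of an E3 ubiquitin ligase, differed by 0.42. The nuclear proteins were Sgf29, a subunit of the SAGA acetyltransferase complex, at 0.44, and Mutyh, a glycosylase that repairs oxidised DNA, at 0.42. None passed the test. Rab20 and Mutyh were dim in lin- 1 and lin- 2, at 5.66 and 5.50 and at 5.76 and 5.64, as were Tmcc3 and Lipt2. For higher genes the rule required detection on the single TIC arrays only, so these differences also lie near background. Under alternatives other than leaving out a tumour, Tmcc3 and Lipt2 fell as low as 0.23 and 0.25, and Rab20 and Mutyh as low as 0.19 and 0.16.

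Among the 35 gene lists, DNA replication was the one whose score put all 9 single TIC tumours on 1 side of both lin- tumours. The list covers the MCM helicase, origin licensing and firing factors, polymerase and ligase, the clamp and its loader, and nucleotide synthesis. All 24 of its measured genes had a higher mean in single TIC tumours, with a median of 0.32, against 48.5% of all genes and a median of -0.01, and 0 were called. The mean exceeded both lin- tumours separately for 20 of the 24 (83.3%, against 25% of all genes). The list score, which centres each gene on its average across the 16 tumours and then averages the genes of the list, was -0.19 in lin- 1 and -0.22 in lin- 2. It ran from -0.15 to 0.55 in single TIC tumours, median 0.03, and the lowest of the 9 lay close to lin- 1. The 5 primary tumours ran from -0.70 to 0.19. No p is given for the score, because the lists were written with earlier results known and the genes of a list share tumours.

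Among its members, Mcm3, a subunit of the replicative helicase, was 7.91, 8.30 and 8.83 in single TIC and 7.47 and 7.77 in lin- tumours, and all 9 single TIC values were above both. Its difference was 0.71 (SE 0.27, 95% interval 0.13 to 1.28, unadjusted p = 0.0192, adjusted p = 1.00), and it was the one member with an unadjusted p under 0.05. Pole, the catalytic subunit of polymerase epsilon, was 6.96, 7.53 and 8.30 against 7.22 and 6.49 (difference 0.70, SE 0.33). For Pole, of the 9 single TIC tumours, 7 lay above both lin- tumours and 2 lay between the lin- tumours. Mcm2, another helicase subunit, gave a difference of 0.51 (SE 0.33), and Tk1, thymidine kinase, gave a difference of 0.46 (SE 0.28). Cdc45 (a helicase cofactor), Lig1 (the ligase of lagging-strand fragments) and Mcm5 also did not overlap between the groups, so with Mcm3 this held for 4 of 24 members, beside 1.27% of all genes. These were named after their values were seen, and differed by 0.43, 0.44 and 0.40. With 1 single TIC tumour left out, 23 or 24 members stayed higher and the median lay between 0.28 and 0.38. Of the 22 members with a promoter in the table, 6 (27.3%) held the E2F site shown for Mcm5, as did 224 of 8034 tested genes (2.79%).

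Mitosis and spindle genes leaned the same way with more overlap. Of 20 measured, 16 had a higher and 4 a lower mean in single TIC tumours, with a median of 0.20 and 0 called. Aurka, a spindle pole kinase, was 8.84, 9.68 and 10.48 in single TIC and 9.54 and 9.08 in lin- tumours (difference 0.35, SE 0.42). For Aurka, of the 9 single TIC tumours, 6 lay above both lin- tumours and 3 lay below both lin- tumours. Kif22, a chromosome motor, gave a difference of 0.34 (SE 0.39) and Tpx2, an activator of Aurora A, gave a difference of 0.30 (SE 0.49). List scores were 0.04 and -0.13 in lin- tumours and ran from -0.53 to 0.73 in single TIC tumours, 4 above both lin- tumours, 3 between them and 2 below both. Mki67 was not analysed here.

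**Figure D2:**
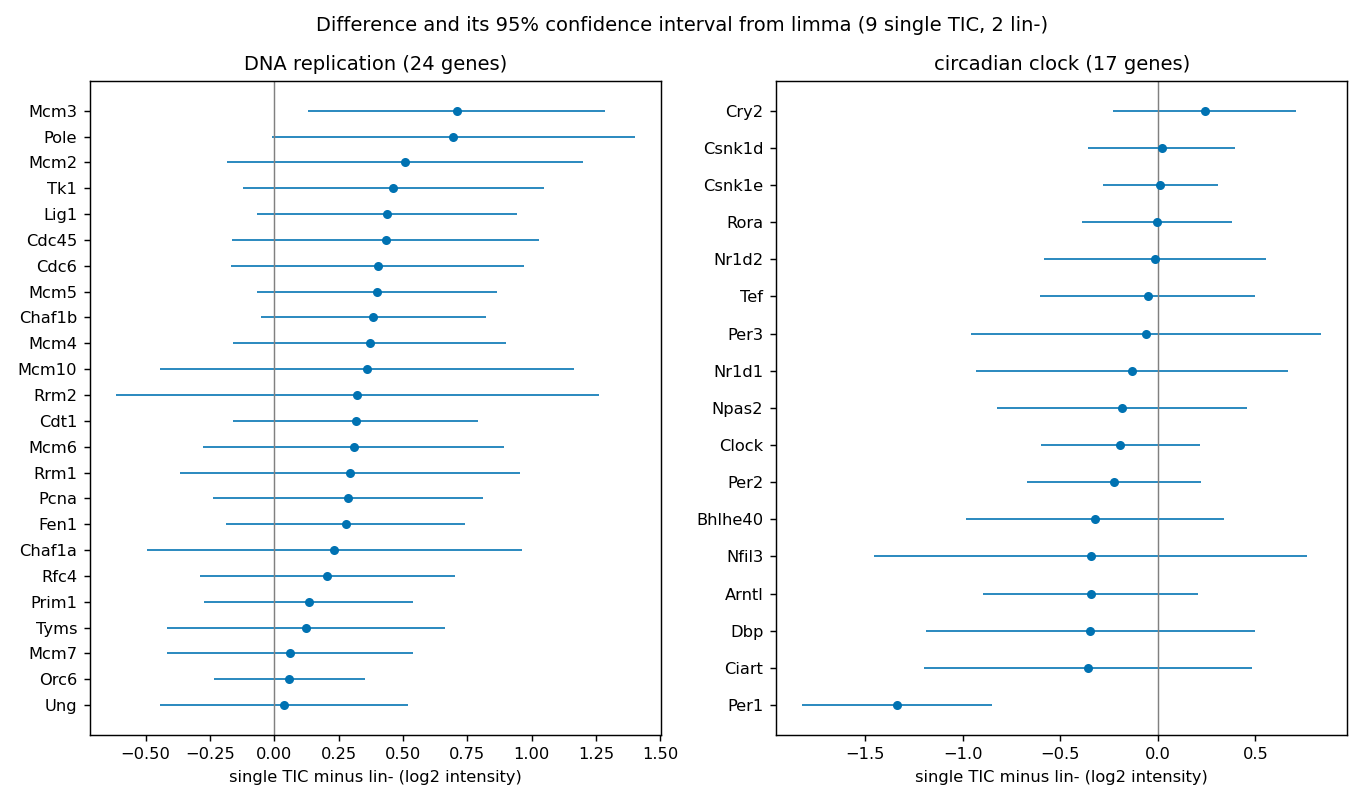
Difference between single TIC and lin- tumours for each measured gene of the DNA replication and circadian clock lists, with its 95% interval from limma on the log2 scale. All 24 replication genes lie right of 0 with intervals that mostly cross it, and Per1 at -1.34 lies apart from the other clock genes.

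Interferon-stimulated genes were higher on average in single TIC tumours, and the size of this rested on lin- 2. All 30 measured genes of the interferon list had a higher mean in single TIC tumours, with a median of 0.65, but 0 were called, 0 had an unadjusted p under 0.05, and 0 were free of overlap. Against lin- 1 alone, 20 of 30 were higher and the median was 0.08. Against lin- 2 alone, 30 were higher and the median was 1.21. Ifit3, an interferon-induced antiviral protein whose promoter is shown above, was 13.19, 11.31, 9.34, 10.28, 10.61, 10.73, 9.77, 11.68 and 11.56 in single TIC tumours 1 to 9 and 10.43 and 8.31 in lin- 1 and lin- 2. Its difference of 1.57 (SE 0.80, adjusted p = 1.00) had a wide error. For Ifit3, of the 9 single TIC tumours, 6 lay above both lin- tumours and 3 lay between the lin- tumours. Oas2, a sensor of double-stranded RNA, gave a difference of 1.05 (SE 0.76), and Rsad2, the antiviral enzyme viperin, gave a difference of 0.95 (SE 0.81). For Rsad2 lin- 1 was 11.01 and lin- 2 was 9.08, and without lin- 2 its difference was -0.02.

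The list score of interferon genes was 0.22 in lin- 1 and -0.79 in lin- 2. It ran from -0.65 in single TIC 3 to 1.23 in single TIC 1, with 5 tumours above both lin- tumours and 4 between them. The lin- tumours lay further from each other than the means of the groups did. The response element core was found in 12 of 20 interferon genes with a promoter in the table (60.0%) and in 312 of 8034 tested genes (3.88%).

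Antigen presentation showed the same dependence on lin- 2. Of 17 MHC class I and immunoproteasome genes, 15 had a higher and 2 a lower mean in single TIC tumours, with a median of 0.27, 0.06 against lin- 1 and 0.49 against lin- 2. Nlrc5, the transactivator of class I genes, was 7.77, 8.41 and 10.04 in single TIC and 8.40 and 7.83 in lin- tumours (difference 0.71, SE 0.56). Psmb9 and Psmb10, immunoproteasome subunits, gave differences of 0.59 (SE 0.41) and 0.51 (SE 0.36), and the peptide transporter Tap1 gave a difference of 0.58 (SE 0.41). Class II genes were 8 higher and 3 lower of 11, with a median of 0.24, -0.12 against lin- 1 and 0.47 against lin- 2. Without single TIC 9, class II genes were 6 higher and 5 lower, with a median of 0.02. Their transactivator Ciita differed by 0.52 and the protease Ctss, which trims the invariant chain, by 0.52. No member of either list was called.

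Immune cell markers were measured in bulk RNA, in which fewer cells of a type and less RNA per cell cannot be told apart. Macrophage and myeloid genes were 14 higher and 3 lower of 17 in single TIC tumours, with a median of 0.21. Against lin- 1 alone 8 of 17 were higher with a median of 0.00 after rounding, and against lin- 2 alone 14 with a median of 0.50, so the lean was absent without lin- 2. Aif1, a macrophage actin-bundling protein, gave a difference of 0.52 (SE 0.37), and the complement components C1qa and C1qc gave differences of 0.38 (SE 0.30) and 0.39 (SE 0.41). C1qc was 10.44, 10.76 and 11.50 in single TIC and 10.91 and 10.10 in lin- tumours, and of the 9 single TIC tumours, 4 lay above both lin- tumours and 5 lay between the lin- tumours. T and NK cell genes were 5 higher and 10 lower of 15, with a median of -0.11, which was 0.01 against lin- 1 and -0.22 against lin- 2. Prf1, perforin, gave a difference of 0.71 (SE 0.81), whereas the CD8 chain Cd8b1 differed by -0.32 and the T cell receptor chains Cd3d, Cd3e and Cd3g by -0.26, -0.19 and -0.16. Il2rb, the beta chain of the interleukin 2 receptor, was detected on 4 of 9 single TIC arrays and on 0 lin- arrays. On measured values, with its undetected single TIC arrays included as they were, its mean was at least 1.05-fold higher in single TIC tumours. Neutrophil genes were 4 higher and 3 lower of 7, with a median of 0.27, which was 0.02 against lin- 1 and 0.15 against lin- 2. The calgranulins S100a8 and S100a9 differed by -0.35 and -0.54, S100a9 being detected on 1 array of each group. The cytokine gene Il1b differed by 0.70. Csf3r, the receptor for granulocyte colony-stimulating factor, was detected on 7 single TIC and 0 lin- arrays. On the same basis as for Il2rb, its mean was at least 1.23-fold higher.

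B cell genes were high in 1 tumour of each group. Cd79b, a chain of the B cell receptor complex, was 8.43 in lin- 2 and 8.90 in single TIC 2, against 5.31 in lin- 1. Mzb1, a chaperone of antibody-secreting cells, was 7.15 and 7.71 in the same pair of tumours. The B cell chemoattractant Cxcl13 was 8.72 and 9.41, against 4.68 to 5.36 in the other 9 secondary tumours. Glycam1, a ligand of L-selectin that is made by high endothelial venules and by secretory mammary epithelium, was 10.81 and 10.98, and lay at 7.26 in single TIC 7. The B and plasma cell list had 1 gene higher and 4 lower of 5, with a median of -0.43, which was 0.39 against lin- 1 and -1.35 against lin- 2. Lin- 2 had both the high B cell genes and the low interferon score, whereas single TIC 2 had an interferon score of 0.56, and the part of B cells in the other results was not tested.

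Chemokines were split, 13 higher and 11 lower of 24, with a median of 0.01, which was -0.12 against lin- 1 and 0.32 against lin- 2. Cxcl9, which attracts T cells and is induced by interferon gamma, was 7.76, 8.46 and 12.23 in single TIC and 8.72 and 7.24 in lin- tumours (difference 0.98, SE 0.83), with single TIC 9 the highest. Ccl4 and Ccl3, chemokines of macrophages and T cells, gave differences of 0.97 (SE 0.72) and 0.85 (SE 0.75). For Ccl4, of the 9 single TIC tumours, 7 lay above both lin- tumours and 2 lay between the lin- tumours.

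Fibroblast and matrix genes were lower on average in single TIC tumours. Of 28 measured, 27 had a lower and 1 a higher mean, with a median of -0.36, and 0 were called. Against lin- 1 alone 1 of 28 was higher, with a median of -0.50, and against lin- 2 alone 9, with a median of -0.21. The exception was Fap, a surface protease of activated fibroblasts, named after its value was seen, with a difference of 0.26. Dcn, the collagen-binding proteoglycan decorin, was 9.06, 11.63, 11.48, 11.98, 10.17, 5.15, 11.98, 9.93 and 11.74 in single TIC tumours 1 to 9 and 11.36 and 11.17 in lin- tumours. Single TIC 6 was far below the rest, and of the 9 single TIC tumours, 5 lay above both lin- tumours and 4 lay below both lin- tumours, so its difference of -0.92 had an SE of 1.61. Fbln2 and Fbln1, matrix fibulins, gave differences of -0.85 (SE 0.47) and -0.69 (SE 0.996), and Lox, which cross-links collagen, gave a difference of -0.62 (SE 1.07). Single TIC 6 was also the lowest for Fbln1 at 5.31 and Lox at 5.40. Without single TIC 6 the same count of genes was lower, 27 of 28, the list median was -0.13 and the Dcn difference -0.27. The list score was 0.82 and 0.49 in lin- tumours and from -0.998 to 1.05 in single TIC tumours, with 3 above both lin- tumours, 1 between them and 5 below both.

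All 9 pericyte and smooth muscle genes had a lower mean in single TIC tumours than the value in either lin- tumour (100%, against 26.8% of all genes), with a median of -0.19 and 0 called. Mylk, myosin light chain kinase, was 7.33, 7.63 and 8.61 in single TIC and 7.91 and 8.51 in lin- tumours (difference -0.45, SE 0.31), and of the 9 single TIC tumours, 1 lay above both lin- tumours, 2 lay between the lin- tumours and 6 lay below both lin- tumours. Tagln, a smooth muscle actin-binding protein, gave a difference of -0.37 (SE 0.25) but was detected on only 2 of 9 single TIC arrays and 1 of 2 lin- arrays. Basement membrane genes were 4 higher and 8 lower of 12, with a median of -0.17. Lamb3, a laminin beta chain of epithelial basement membranes, was 6.91, 9.48 and 10.92 against 9.87 and 11.27 (difference -1.02, SE 0.77), and Nid2, which links laminin to collagen IV, gave a difference of -0.39 (SE 0.57). Endothelial genes were 9 higher and 10 lower of 19, with a median of 0.00 after rounding, and Kdr was not analysed here.

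Fat and muscle were checked because tissue around a graft can be taken with it. Adipocyte genes were 6 higher and 7 lower of 13, with a median of -0.06, but 10 of 13 were higher against lin- 1 alone (median 0.25) and 5 against lin- 2 alone (median -0.21). Adipoq, adiponectin, was 6.63 in lin- 1 and 8.97 in lin- 2, and in single TIC tumours 4.70, 6.72 and 10.31, a difference of -0.56 (SE 1.33). Lpl, which releases fatty acids from lipoproteins, gave a difference of 0.47 (SE 0.38), the desaturase Scd1 gave a difference of 0.37 (SE 0.31), and Dgat2, which makes triglyceride, differed by -0.35. Skeletal muscle genes were 8 higher and 2 lower of 10, with a median of 0.15. Myl1, a fast-muscle myosin light chain, was detected on 4 single TIC and 0 lin- arrays. On measured values, undetected single TIC arrays included, its mean was at least 1.13-fold higher. Single TIC 1 was its highest at 8.70, and its lowest single TIC value of 4.71 lay below the lin- values of 4.81 and 5.05. Acta1, skeletal alpha actin, was 7.90 in single TIC 1 and was detected on 2 single TIC and 0 lin- arrays. The part of admixed tissue in the other results was not tested.

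**Figure D3:**
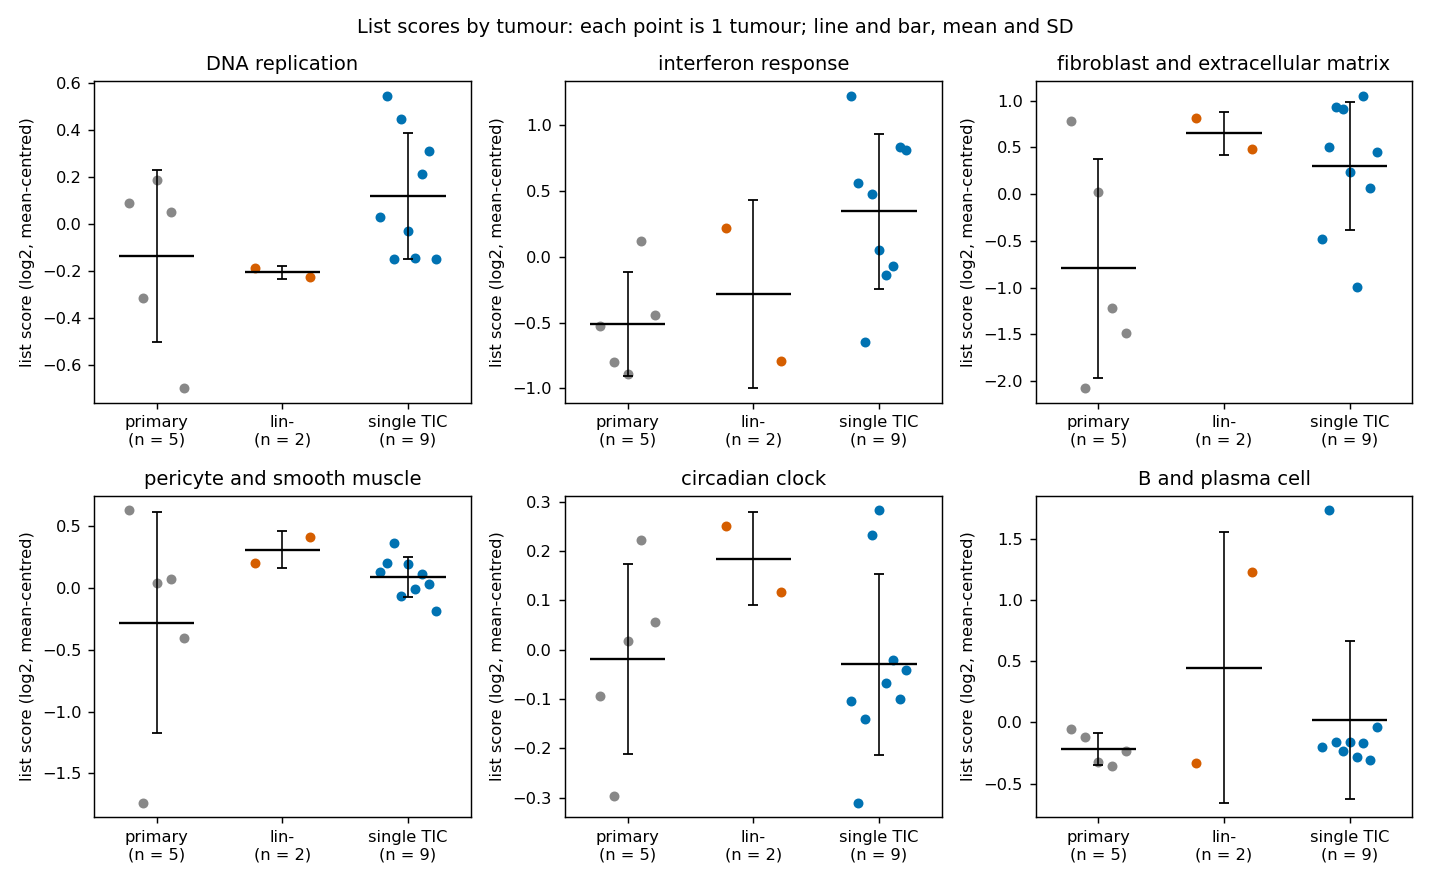
List scores of selected gene lists in each tumour, averaged over list genes after centring each gene (log2 scale), with 1 point per tumour, a line at the group mean and a bar for its SD, for single TIC, lin- and primary tumours. The replication scores of all 9 single TIC tumours lie above both lin- tumours, whereas interferon scores of lin- 1 at 0.22 and lin- 2 at -0.79 span much of the single TIC range.

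No epithelial lineage gene passed, and the medians lay close to that of all genes. Luminal genes were 9 higher and 7 lower of 16, with a median of 0.03, and basal and myoepithelial genes 5 higher and 6 lower of 11, with a median of 0.00 after rounding. Cd24a, a surface glycoprotein used to sort mammary cells, was 5.72, 6.74 and 7.46 in single TIC and 6.37 and 6.002 in lin- tumours (difference 0.55, SE 0.40). For Cd24a, of the 9 single TIC tumours, 7 lay above both lin- tumours, 1 lay between the lin- tumours and 1 lay below both lin- tumours. Esr1, the oestrogen receptor alpha, gave a difference of -0.51 (SE 0.67), Cldn4, a claudin, gave a difference of -0.39 (SE 0.52), and Muc1, an apical mucin, gave a difference of 0.34 (SE 0.65). All 3 changed sign when 1 lin- tumour was left out. Krt5 was not analysed here.

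Markers used to enrich mammary stem or tumour-initiating cells were 3 higher and 11 lower of 14, with a median of -0.09 and 0 called. Cd44, the hyaluronan receptor, gave a difference of 0.34 (SE 0.46). Itgb3, integrin beta 3, gave a difference of -0.38 (SE 0.19) and was detected on 5 of 9 single TIC arrays and on both lin- arrays. Inhbb, an activin subunit, gave a difference of -0.38 (SE 0.31). List scores of 7 single TIC tumours lay below both lin- tumours, 1 between and 1 above, and all 11 lay within a range of -0.12 to 0.11.

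Milk protein genes ranged widely within the single TIC group. They were 8 higher and 8 lower of 16, with a median of 0.01. Wap, whey acidic protein, was 12.07, 10.79, 12.001, 6.73, 11.03, 12.13, 9.40, 10.73 and 10.35 in single TIC tumours 1 to 9 and 11.97 and 9.11 in lin- tumours. Single TIC 4 was the lowest, and of the 9 single TIC tumours, 3 lay above both lin- tumours, 5 lay between the lin- tumours and 1 lay below both lin- tumours. Ltf, lactoferrin, was 10.46 in lin- 1 and 6.93 in lin- 2 and 7.83, 10.24 and 11.59 in single TIC tumours, so its difference of 1.27 came with an SE of 0.86. Mfge8, a milk fat globule protein that bridges dying cells to phagocytes, gave a difference of -0.84 (SE 0.75). The milk list score of single TIC 4 was -1.998, and without that tumour 11 of 16 genes were higher, with a median of 0.12.

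No member of the ErbB or PI3-kinase lists passed. ErbB receptors and ligands other than Erbb2 were 5 higher and 5 lower of 10, with a median of 0.02. The ligands Nrg1 and Egf gave differences of 0.66 (SE 0.72) and -0.49 (SE 0.39). PI3-kinase and Akt genes were 7 higher and 9 lower of 16, with a median of -0.01. Foxo1, described above, was the 1 member of 16 without overlap, beside 1.11% of all genes that were lower without overlap. Pdpk1, the kinase that activates Akt, gave a difference of -0.26 (SE 0.16).

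Most measured genes of the Notch, Wnt and TGF-beta lists had a lower mean in single TIC tumours, with 0 calls. Notch genes were 2 higher and 11 lower of 13, with a median of -0.19, and -0.18 and -0.14 against lin- 1 and lin- 2 alone. The ligand Dll1 was 7.65, 8.38 and 9.79 in single TIC and 9.84 and 8.85 in lin- tumours (difference -0.88, SE 0.54), and of the 9 single TIC tumours, 2 lay between the lin- tumours and 7 lay below both lin- tumours. The receptor Notch1 gave a difference of -0.30 (SE 0.24), the coactivator Maml1 gave a difference of -0.49 (SE 0.27) and the target Hes1 gave a difference of -0.31 (SE 0.27). Wnt genes were 4 higher and 13 lower of 17, with a median of -0.10, but against lin- 2 alone 9 of 17 were higher and the median was 0.03, beside -0.22 against lin- 1. The non-canonical ligand Wnt5a gave a difference of -0.45 (SE 0.75). TGF-beta and activin genes were 5 higher and 18 lower of 23, with a median of -0.14, and -0.21 and -0.12 against lin- 1 and lin- 2 alone. The type II receptor Bmpr2 was 5.27, 5.90 and 6.35 against 6.21 and 6.62 (difference -0.56, SE 0.23, unadjusted p = 0.0265), and the co-receptor Tgfbr3 was 8.43, 8.72 and 9.40 against 9.55 and 9.03 (difference -0.48, SE 0.22, unadjusted p = 0.0423). Ltbp1, which holds latent TGF-beta in the matrix, gave a difference of -0.61 (SE 0.54) from its brighter probe. Its other kept probe had the opposite sign, at 0.49, and the smaller unadjusted p of the pair. Ltbp1 is counted as lower in the list by its brighter probe only, and its direction is not settled. Epithelial-mesenchymal transition genes were 8 higher and 10 lower of 18, with a median of -0.01. Among them Crb3, an apical polarity protein, was below both lin- tumours in all 9 single TIC tumours (difference -0.42, SE 0.22). It was 1 of 18 members, beside 1.11% of all genes. Twist1 was detected on 2 single TIC arrays and 1 lin- array.

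Hypoxia and glycolysis genes were 7 higher and 20 lower of 27 in single TIC tumours, with a median of -0.22 and 0 called. Vegfa, the vascular growth factor, was 10.32, 11.27 and 12.39 in single TIC and 11.93 and 12.05 in lin- tumours (difference -0.71, SE 0.48). For Vegfa, of the 9 single TIC tumours, 2 lay above both lin- tumours and 7 lay below both lin- tumours. Ndrg1, a stress-responsive growth regulator, gave a difference of -0.70 (SE 0.56), Ddit4, an inhibitor of mTORC1, gave a difference of -0.63 (SE 0.49), and the glucose transporter Slc2a1 gave a difference of -0.48 (SE 0.30). Tumour size is given only as under 1.0 cm, and the part of size in these values was not tested.

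Stress and folding lists had medians between -0.07 and 0.01. Immediate early and heat shock genes were 11 higher and 11 lower of 22, with a median of 0.00 after rounding. Fos, Egr1 and Atf3, transcription factors induced within minutes of a stimulus, gave differences of 0.56 (SE 0.84), -0.49 (SE 0.44) and 0.62 (SE 0.44). Endoplasmic reticulum stress genes were 7 higher and 12 lower of 19, with a median of -0.03, led by Herpud1 at -0.41 and the co-chaperone Dnajb9 at -0.41. Prefoldin and chaperonin subunits were 8 higher and 6 lower of 14, with a median of 0.01. Pfdn1 gave a difference of 0.37 (SE 0.19), and Tcp1 was below both lin- tumours in all 9 single TIC tumours (difference -0.20, SE 0.11). This pattern held for 2 of the 14 members, beside 1.11% of all genes. Targets of p53 and apoptosis genes were 6 higher and 16 lower of 22, with a median of -0.07 that was -0.21 against lin- 1 and 0.09 against lin- 2, and Trp53inp1 gave a difference of -0.43 (SE 0.31).

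**Figure D4:**
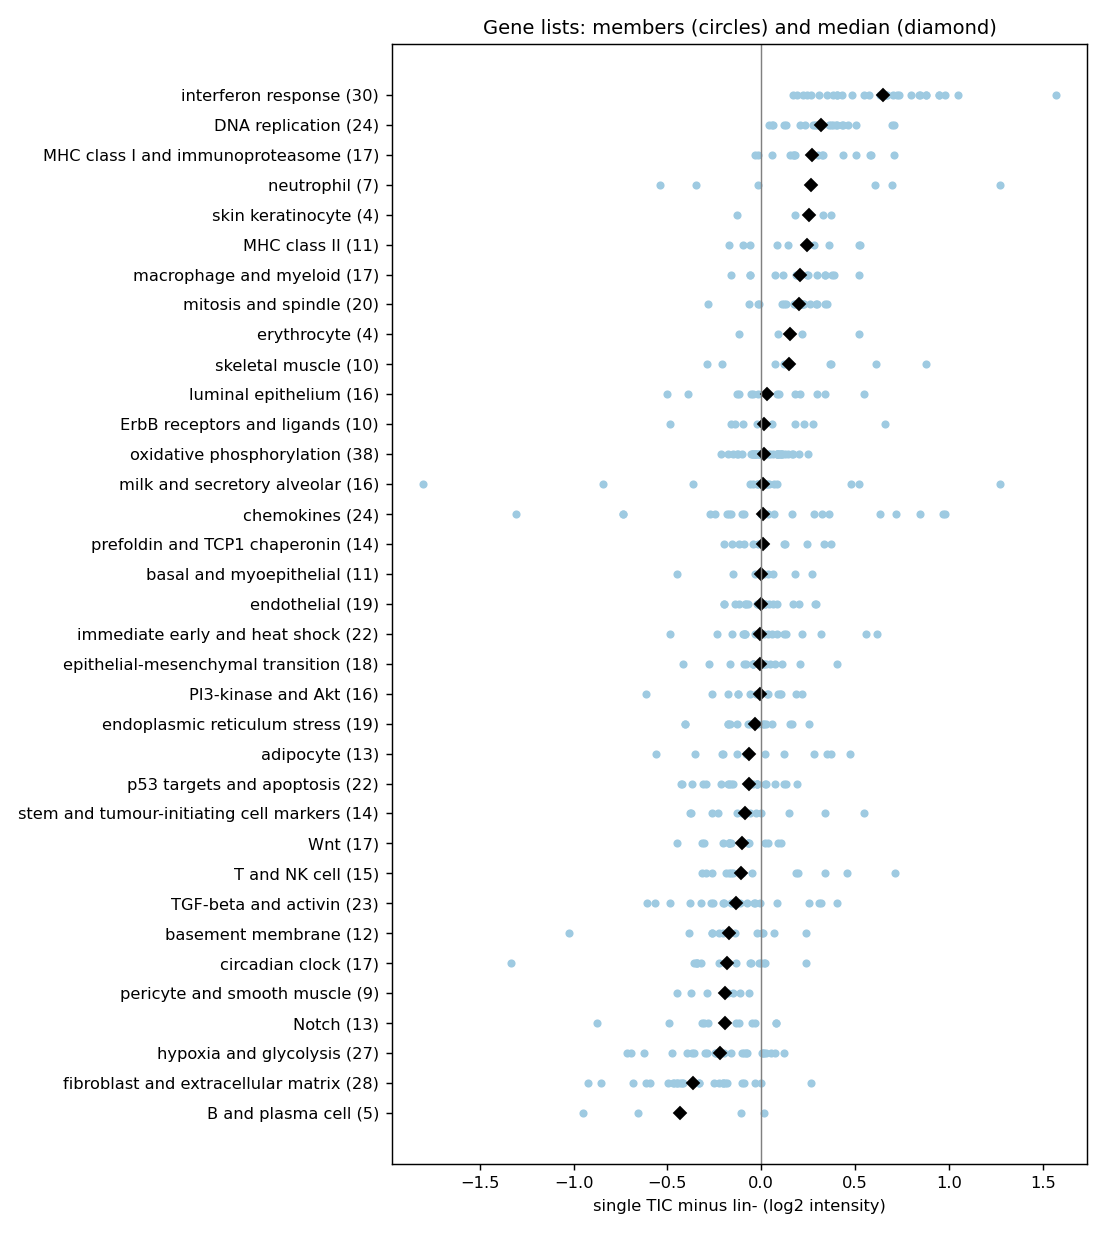
Median difference between single TIC and lin- tumours over the measured genes of each of 35 lists on the log2 scale. Circles are genes, diamonds are list medians, and the vertical line is at 0. The interferon list at 0.65 and the DNA replication list at 0.32 lie highest, and the fibroblast list at -0.36 and the B and plasma cell list at -0.43 lie lowest.

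Genes that an earlier look at these data had named between secondary and primary tumours were set side by side here, with the primary tumours shared by both comparisons. Isg15, a ubiquitin-like protein induced by interferon, differed from primary tumours by 2.12 in single TIC and 1.24 in lin- tumours, and between the secondary groups by 0.88 (SE 0.49). Bst2, the virus-tethering protein tetherin, gave 2.06, 1.12 and 0.95 in the same order, and Ifi27l2a, another interferon-induced gene, 2.37, 1.49 and 0.88. In all 3 the single TIC mean was further from the primary mean than the lin- mean was, and none of the 3 passed between the secondary groups. The genes had been named for secondary against primary tumours in the same data, so this order is not independent support. Lin- 1 lay inside the single TIC range for all 3. With 1 tumour left out, the differences between the secondary groups fell as low as 0.29, 0.81 and 0.10. The chemokines Ccl8 and Ccl7 differed between the secondary groups by 0.07 and 0.36, platelet factor Pf4 by -0.10, and Rarres2, the chemerin precursor, by 0.04.

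Slc2a6, a lysosomal sugar transporter, was 7.67, 8.60 and 10.44 in single TIC tumours and 7.83 and 7.18 in lin- tumours, a difference of 1.20 (SE 0.53) with an unadjusted p of 0.0391 and an adjusted p of 1.00. For Slc2a6, of the 9 single TIC tumours, 8 lay above both lin- tumours and 1 lay between the lin- tumours. Apof, apolipoprotein F, gave a difference of 0.85 (SE 0.72), and the PI3-kinase regulatory subunit Pik3r3 gave a difference of -0.01 (SE 0.66). The surface antigen Ly6c1 differed by 0.29, the matrix proteins Bgn and Tgfbi by -0.21 and 0.40, the galectin Lgals1 by 0.01, and the folding factors Pfdn2 and Pdia3 by -0.12 and -0.02. Among the 24 genes of that earlier list only Per1 had an unadjusted p under 0.01 between single TIC and lin- tumours.

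Among genes detected on all 11 secondary arrays, the 6 largest differences belonged to Per1, Ifit3 and Ltf, given above, and to Ecrg4, Smoc1 and Espn. Ecrg4, the precursor of a secreted peptide, was 5.67, 7.59 and 8.63 in single TIC and 8.85 and 9.35 in lin- tumours (difference -1.71, SE 0.85). Smoc1, a secreted calcium-binding matrix protein, was 7.77, 9.83 and 11.45 against 10.28 and 11.90 (difference -1.37, SE 0.75). Espn, an actin-bundling protein, gave a difference of -1.24 (SE 0.71) from its brightest probe, but 2 of its 4 probes had the opposite sign. In Ecrg4 all 9 single TIC tumours lay below both lin- tumours, and in Smoc1 of the 9 single TIC tumours, 3 lay between the lin- tumours and 6 lay below both lin- tumours.

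As whole profiles, the lin- tumours lay within the spread of the single TIC tumours. Over the 9903 genes, lin- 1 and lin- 2 correlated with r = 0.981, which ranked 13 of the 55 pairs of secondary tumours, and 370 genes differed 2-fold or more between them. The 18 pairs of a lin- and a single TIC tumour had a median r of 0.979, from 0.962 to 0.985, and a median of 424 genes apart by 2-fold. The 36 pairs of single TIC tumours had a median r of 0.972, from 0.951 to 0.987, and a median of 569.5 such genes. Lin- 1 was closest to single TIC 5 (r = 0.985) and lin- 2 to single TIC 8 (r = 0.983), and average-linkage clustering joined each to that tumour first. Single TIC 4 joined last, after all primary tumours too. Correlations are across genes, which are not independent replicates, and no p is given. The median SD of a gene was 0.25 among the 9 single TIC tumours, 0.16 between the 2 lin- tumours and 0.26 among the 5 primary tumours. An SD from 2 values tends to be low, so these values do not show that lin- tumours varied less.

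**Figure D5:**
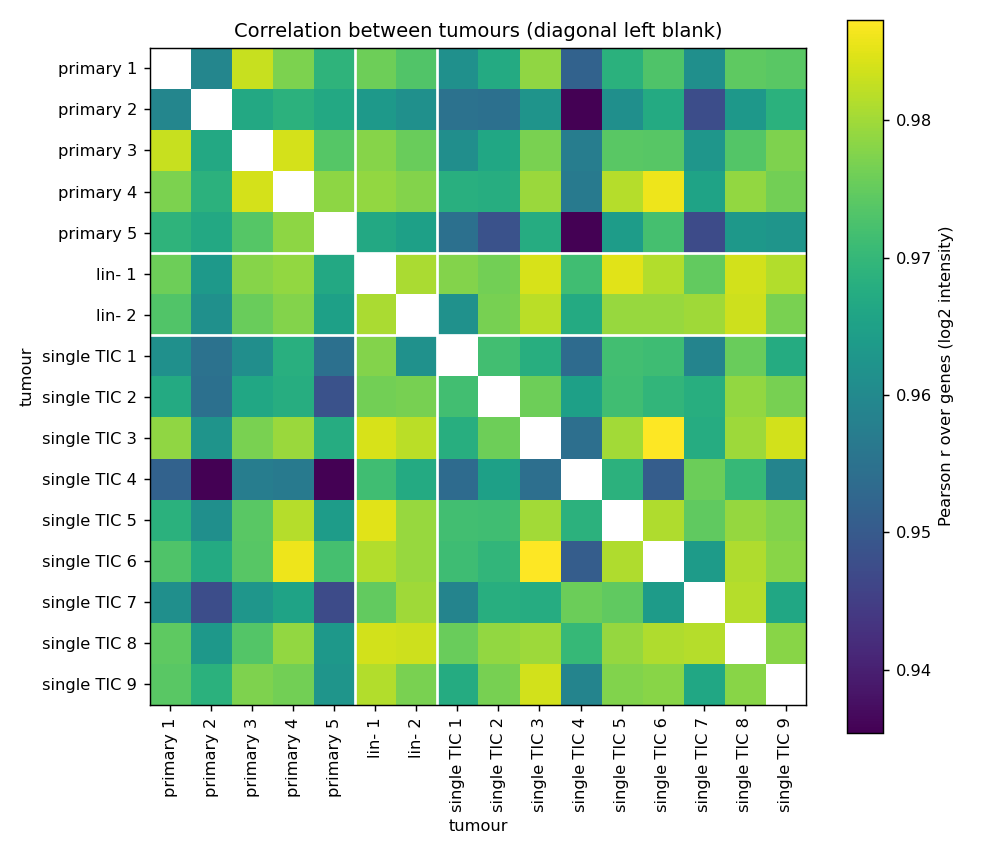
Pearson correlation of log2 intensity over genes for each pair of the 16 tumours, with white lines between primary, lin- and single TIC tumours and the diagonal left blank. The lin- pair at 0.981 ranks 13 of the 55 pairs of secondary tumours, and single TIC 4 correlates less with most tumours.

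The 2 lin- tumours differed most from each other in Ltf and Wap, given above, and in Angptl4, Hoxb2, Cd14 and Cdkn1a, among genes detected on all 11 secondary arrays. Angptl4, a secreted inhibitor of lipoprotein lipase, was 10.43 and 7.43, while single TIC tumours ran 6.87, 7.64 and 9.73. Cd14, the lipopolysaccharide co-receptor, was 11.49 and 8.75, while single TIC tumours ran 8.66, 10.41 and 12.19. Cdkn1a, the cell cycle inhibitor p21, was 11.03 and 8.40, while single TIC tumours ran 8.25, 9.52 and 11.42. Hoxb2, a homeobox factor, was 8.95 and 6.06, against 5.66, 6.04 and 9.91. In all 6 genes the single TIC range held at least 1 of the lin- values, and the sign of the difference depended on which lin- tumour was kept.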

How the data were processed

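Tumours were grouped by their sample descriptions. Per the file headers, the deposited table gives for each of 25697 probes a non-normalized intensity on a linear scale and a detection p-value in each of 16 tumours. The authors' processed table also holds intensity values, quantile-normalized as judged from the values, and was used as an alternative. The software was BeadStudio, per the submitters' processing notes, and its version is not given in the sources used here. Probe names came from the platform annotation (23978 probes with 1 symbol, 0 with several, 1719 with none).

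Intensities were corrected by normexp with the detection p-values (function nec, offset 16), quantile-normalized and taken to log2 with limma 3.58.1 in R 4.3.3. The offset understates changes of dim genes. Probes with detection p under 0.05 on at least 2 arrays were kept (14520), and each of 9903 genes was represented by its brightest kept probe. Differences came from lmFit and eBayes with 3 group means, two-sided, with Benjamini-Hochberg adjustment over all genes, called at 0.05. All 16 tumours entered the fit so that the spread of 2 lin- tumours could be estimated with the others. Array values carry no counting depth, and the number of arrays limits the precision.

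For a gene detected on no array of 1 group the difference is a bound on the measured means, and it takes no account of sampling error. The dim side takes, on each array, the dimmest detected probe or the gene itself, whichever is brighter, and the bright side is its own mean over all arrays. Where only some arrays of the bright group detected the gene, undetected values enter that mean as measured, so the bound is not strict.

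Named genes were, per direction, the 12 with the smallest p whose groups did not overlap and whose higher group was detected on every array, up to 4 members of each of 35 lists with the largest difference, 24 genes named earlier between secondary and primary tumours, and the 6 with the largest difference between groups and between lin- tumours among genes detected on all 11 arrays. The gene lists and their genes were written with earlier results of these data known. The fit was tested on simulated data with independent normal noise and a spread per gene shared by all groups. That test cannot show whether the tumours are independent or whether the lin- tumours share the spread of the others. Promoter windows are from RefSeq, and correlations are Pearson's over all genes. Alternatives were the offset, the processed table, the detection filter, probe averaging, array weights, eBayes with trend, mean intensity as covariate, the 11 secondary tumours alone, and leaving out each tumour.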

Additional observations from a re-analysis of the deposited data

Results flagged for a closer look

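Single tumours that lay far from the other 8 single TIC tumours were looked for in 168 measures, namely the genes named in the text, the list scores, mean intensity and the share of probes detected. In 22 of them (13.1%) the gap to the nearest tumour was a larger share of the group's range than Dixon's 95% critical value, a threshold that chance passes in about 1 in 20 groups. The measures are not independent, because related genes and their list scores share tumours, and many genes were named for large differences. The 13.1% therefore cannot be set against that rate. Lin- tumours cannot be examined this way, because there are 2.

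Single TIC 2 was the highest for B cell and lymph node genes: Cd79b at 8.904 (nearest 5.914), Mzb1 at 7.709 (nearest 5.434), Cd79a at 7.183 (nearest 4.941), Cxcl13 at 9.412 (nearest 5.363) and Glycam1 at 10.98 (nearest 7.258). Its B and plasma cell score was 1.734, against -0.035 for the nearest. Lin- 2 had a similar pattern, and the part of lymphoid tissue in either was not tested. Single TIC 2 was also the lowest for Rab20 at 5.86, still above both lin- tumours.

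Single TIC 4 was the lowest for Wap at 6.727 and Mfge8 at 11.86, for the milk score at -1.998 and for the luminal score at -0.4194, and the highest for the endoplasmic reticulum stress score at 0.6171. Single TIC 6 was the lowest for Dcn at 5.153, Fbln1 at 5.311 and Lox at 5.401. Single TIC 1 was the highest for Ccl3 at 8.03, Acta1 at 7.897 and the skeletal muscle score at 0.9275. Single TIC 9 was the highest for Cxcl9 at 12.23 and Per2 at 10.78. Single TIC 3 had the highest basal and myoepithelial score at 0.7377, and single TIC 5 the highest Bmpr1b at 5.612, where the gene was not detected on any single TIC array.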

How the results depend on the processing

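Under 25 alternative settings the count of genes called stayed at 0, except for 1 gene (Per1) with array weights and 1 (again Per1) without single TIC 1, so the range over left-out tumours was 0 to 1. Per1 kept its sign in all 25, between -1.20 and -1.41, and its adjusted p was 0.0201 with array weights (a value of -1.38) and 0.0347 without single TIC 1 (-1.41). The setting of every kept probe, chosen after seeing the data, called 0 of 14520 probes, and 237 had an unadjusted p under 0.05. Genes with an unadjusted p under 0.05 numbered 167 in the reported fit, 359 with array weights, 405 of 16593 genes without the detection filter and 240 without single TIC 4. Of 3252 gene values under the alternatives, 3200 kept their sign. With 1 secondary or primary tumour left out, differences that changed sign ranged from -1.73 to 0.61 for Adipoq, -2.37 to 0.63 for Angptl4, -0.19 to 1.42 for Atf3, -0.42 to 0.0073 for Bgn, -0.017 to 0.79 for C1qc and -0.25 to 0.38 for Ccl8. They ranged from -1.18 to 1.56 for Cd14, -2.51 to 0.61 for Cd79b, -1.49 to 1.14 for Cdkn1a, -1.39 to 0.61 for Cldn4, -1.17 to 0.16 for Esr1 and -4.88 to 1.27 for Glycam1. Others ran from -2.11 to 0.78 for Hoxb2, -0.10 to 0.12 for Lgals1, -0.49 to 3.04 for Ltf, -0.14 to 0.71 for Ly6c1, -0.092 to 0.78 for Muc1 and -0.15 to 0.12 for Pdia3. A further group ran from -0.41 to 0.20 for Pf4, -0.18 to 0.19 for Pik3r3, -0.10 to 0.19 for Rarres2, -0.016 to 1.92 for Rsad2, -0.24 to 0.14 for Tef, -0.21 to 1.02 for Tgfbi and -1.39 to 1.47 for Wap. Pik3r3 was 0.0063 with an offset of 50 and 0.027 in the deposited processed table, and with array weights Ccl8 was -0.034 and Rarres2 -0.012. Mean raw intensity differed by -60.6 to 60.7 over left-out tumours. Of 875 list medians, 10 moved by over 1 SD of the tumours' scores, 9 of them without 1 lin- tumour. The median of B and plasma cell genes was -1.35 without lin- 1 and 0.27 without lin- 2, and that of p53 targets 0.09 and -0.21. The cause of these changes was not tested beyond the tumour or setting named. No paired analysis was possible because the labels give no replicate numbers that groups share. The lin- group holds 2 tumours: with 1 of them left out, the smallest adjusted p was 1.00, and the lone tumour was assumed to vary like the other groups.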
